A study of Mus musculus with 10 samples.

Results

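Cd163, Slc48a1, Hmox1, Blvrb, Fth1, Ftl1, Slc40a1, Slc11a1, Trf and Tfrc cover the route from haemoglobin uptake to iron storage, export and transport. These 10 genes were picked by symbol from the 53546 genes of the deposited count table. All 10 passed the filter on low counts and were among the 14023 genes tested. The haemoglobin transcripts Hbb-bs and Hba-a1 were set beside them in each library. CNS-associated macrophages, which live in the meninges, around vessels and in the choroid plexus, had been isolated by flow sorting from brains of individual untreated C57BL/6N mice aged 6 to 8 weeks, and bulk RNA was sequenced from 500 pg of total RNA. The homozygous group (4 mice) carried Mrc1-CreERT2/Mrc1-CreERT2, the heterozygous group (3 mice, replicates 1, 2 and 4) Mrc1-CreERT2/wt, and the wild-type group (3 mice) no such allele. The labels list no treatment, and so no induction of Cre, and the inducible recombinase is driven by Mrc1, the mannose receptor gene of these macrophages. The comparisons ask whether the driver allele itself goes with a difference in transcript levels.

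Macrophages take up haemoglobin bound to haptoglobin through the scavenger receptor CD163, and also take up whole red cells. Haem freed in the lysosome is moved to the cytosol by the haem transporter HRG1 (Slc48a1) and opened by haem oxygenase 1 (Hmox1) into biliverdin, carbon monoxide and iron. That iron is either stored in ferritin, a shell of heavy (Fth1) and light (Ftl1) chains, or leaves the cell through ferroportin (Slc40a1) and is carried by transferrin (Trf) to cells with the transferrin receptor (Tfrc). Iron regulatory proteins set much of this after transcription. When iron is scarce they bind a hairpin called the iron-responsive element, which blocks translation of ferritin and ferroportin from a 5′ untranslated site and stabilises the Tfrc transcript at 3′ sites.

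The letter pattern of that hairpin was found in 4 of the 10 genes, and the matches are shown because this control acts on the transcripts counted here. Each is 29 bases of a GENCODE vM21 transcript, 5′ to 3′, with the 6-base loop CAGTGN in capitals.

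Fth1: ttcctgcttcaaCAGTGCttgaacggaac

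Ftl1: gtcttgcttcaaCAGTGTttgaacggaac

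Slc40a1: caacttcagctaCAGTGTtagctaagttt

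Tfrc site 1: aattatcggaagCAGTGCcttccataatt

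Tfrc site 2: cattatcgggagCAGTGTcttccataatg

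Tfrc site 3: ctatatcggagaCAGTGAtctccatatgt

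Tfrc site 4: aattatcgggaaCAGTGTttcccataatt

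On GRCm38 the 5′ UTR sites lie at chr19:9982732-9982760 on the plus strand (Fth1), chr7:45459779-45459807 on the minus strand (Ftl1) and chr1:45925465-45925493 on the minus strand (Slc40a1). The 4 Tfrc sites lie in the 3′ UTR on the plus strand, at chr16:32631219-32631247, chr16:32631598-32631626, chr16:32631663-32631691 and chr16:32631710-32631738. The search asked for a C, any 5 bases, the loop and 5 more bases, with all 5 bases on either side able to pair (G with T allowed), on the sense strand of 1 transcript per gene. Of 21877 protein-coding genes, 264 (1.21%) held such a match. No match in the other 6 genes says only that this pattern is not in the transcript searched.

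The ferritin and transferrin genes were among the most abundant transcripts of these cells. Per kilobase of transcript, in CPM (counts per 1000000 counts of a library in tested genes, scaled by edgeR's TMM factors) and divided by length, Ftl1 stood at 5386 ± 483 and Fth1 at 4238 ± 263 (mean ± SD, n = 10 libraries). Trf followed at 2300 ± 294 CPM per kilobase. Among 11360 tested coding genes ranked on the same scale these were the 8th, 13th and 24th.

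The uptake and recycling genes lay well below these per length. Blvrb stood at 324 ± 38.8 and Cd163 at 317 ± 57.8 CPM per kilobase, which do not differ beyond their spread. Slc40a1 had 209 ± 55.7, Slc11a1 177 ± 38.5 and Hmox1 120 ± 25.3 CPM per kilobase, and neighbours among these 3 also overlap within their SD. Slc48a1 had 52.5 ± 8.34 and Tfrc, the entry route for transferrin iron, only 8.43 ± 3.59 CPM per kilobase. With coding length in place of transcript length Fth1 stood above Ftl1 (11596 against 9496 CPM per coding kilobase) and Slc48a1 moved up to the 7th place of these genes. The order of the 2 ferritin chains, and of the genes from Blvrb to Slc48a1, therefore depends on which annotated length is used.

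**Figure D1:**
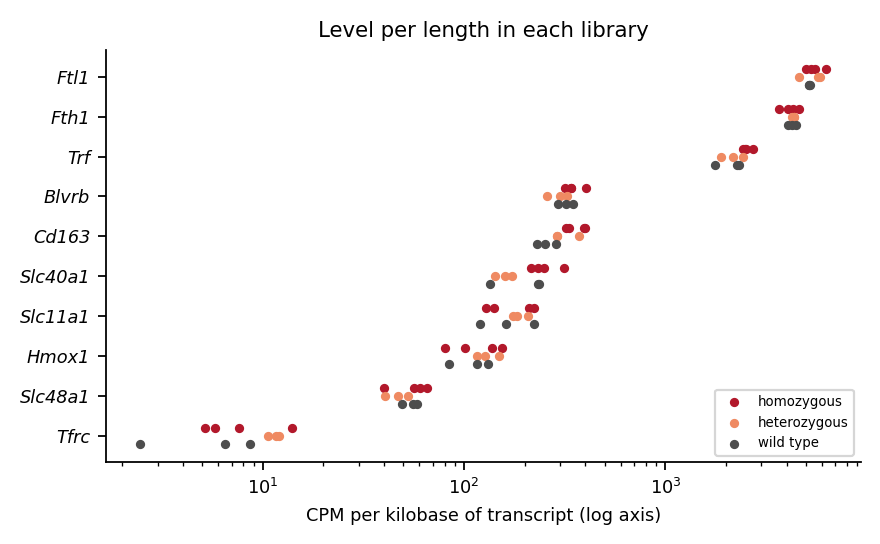
Level per length of the 10 genes in each of the 10 libraries, in TMM-scaled CPM per kilobase of transcript on a log axis. Each point is a library, coloured by genotype. Ftl1, Fth1 and Trf lie above the other 7 genes in every library, and Tfrc is lowest, at a mean of 8.43.

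How steady a gene was across mice differed widely within the set. Fth1 varied by 6.21% and Ftl1 by 8.96% (coefficient of variation over the 10 libraries), below the middle range of 13.3% to 22.7% for 1797 genes of at least 100 CPM. Blvrb at 12% and Trf at 12.8% were also below that range. Slc48a1 at 15.9%, Cd163 at 18.3%, Hmox1 at 21.2% and Slc11a1 at 21.7% lay inside it. Slc40a1 at 26.7% lay above it. Tfrc, which averages below 100 CPM, varied most, at 42.6% with a 5.67-fold range. The 10 genes together took 1.91% to 2.26% of all counts in a library. Their summed level was 21026 to 22802 CPM in homozygous, 18937 to 21300 CPM in heterozygous and 18595 to 20514 CPM in wild-type libraries.

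Libraries held 22986972 to 36575446 counts. Mrc1, the gene under the allele, had 441 to 542 CPM in homozygous, 1985 to 2286 CPM in heterozygous and 3065 to 3748 CPM in wild-type libraries, so the 3 genotypes did not overlap. Markers of CNS-associated macrophages were present as the label says, with none of 11 at 0 in all libraries. Their summed level was 58230 to 67111 CPM in homozygous, 50527 to 62719 CPM in heterozygous and 49366 to 58277 CPM in wild-type libraries. Most of each sum is Apoe, which alone read 31516 to 47475 CPM, and the list also holds Mrc1 itself. Microglia markers were also read, all 8 of them, at 2087 to 3212 CPM in homozygous, 4259 to 6422 CPM in heterozygous and 4184 to 9692 CPM in wild-type libraries. In bulk RNA, fewer cells of a type and less RNA per cell cannot be told apart. Wild-type replicates 1 and 2 had 2166 and 2193 tested genes at 0 counts, against 907 to 1738 in the other 8 libraries.

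No gene of the set passed the test in any of the 3 genotype comparisons with edgeR's quasi-likelihood test and Benjamini-Hochberg adjustment over all 14023 genes. In homozygous over wild type 0 of 10 were called, beside 0.0642% of all genes. In heterozygous over wild type 0 of 10 were called beside 0.0% of all genes, and in homozygous over heterozygous 0 of 10 beside 0.0214%. At an unadjusted p under 0.05, 2 of 10 (Cd163 and Trf, both higher) passed in homozygous over wild type, beside 7.52% of all genes. There was 1 in heterozygous over wild type (Cd163, beside 5.82%) and 1 in homozygous over heterozygous (Slc40a1, beside 4.86%). limma-voom called none of the 10, beside 0.0713% of all genes in homozygous over wild type, 0.0% in heterozygous over wild type and 0.0143% in homozygous over heterozygous. DESeq2 called 1, Cd163 in homozygous over wild type, beside 2.19% of the genes it tested, and none in heterozygous over wild type (1.72%) or homozygous over heterozygous (0.899%).

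**Figure D2:**
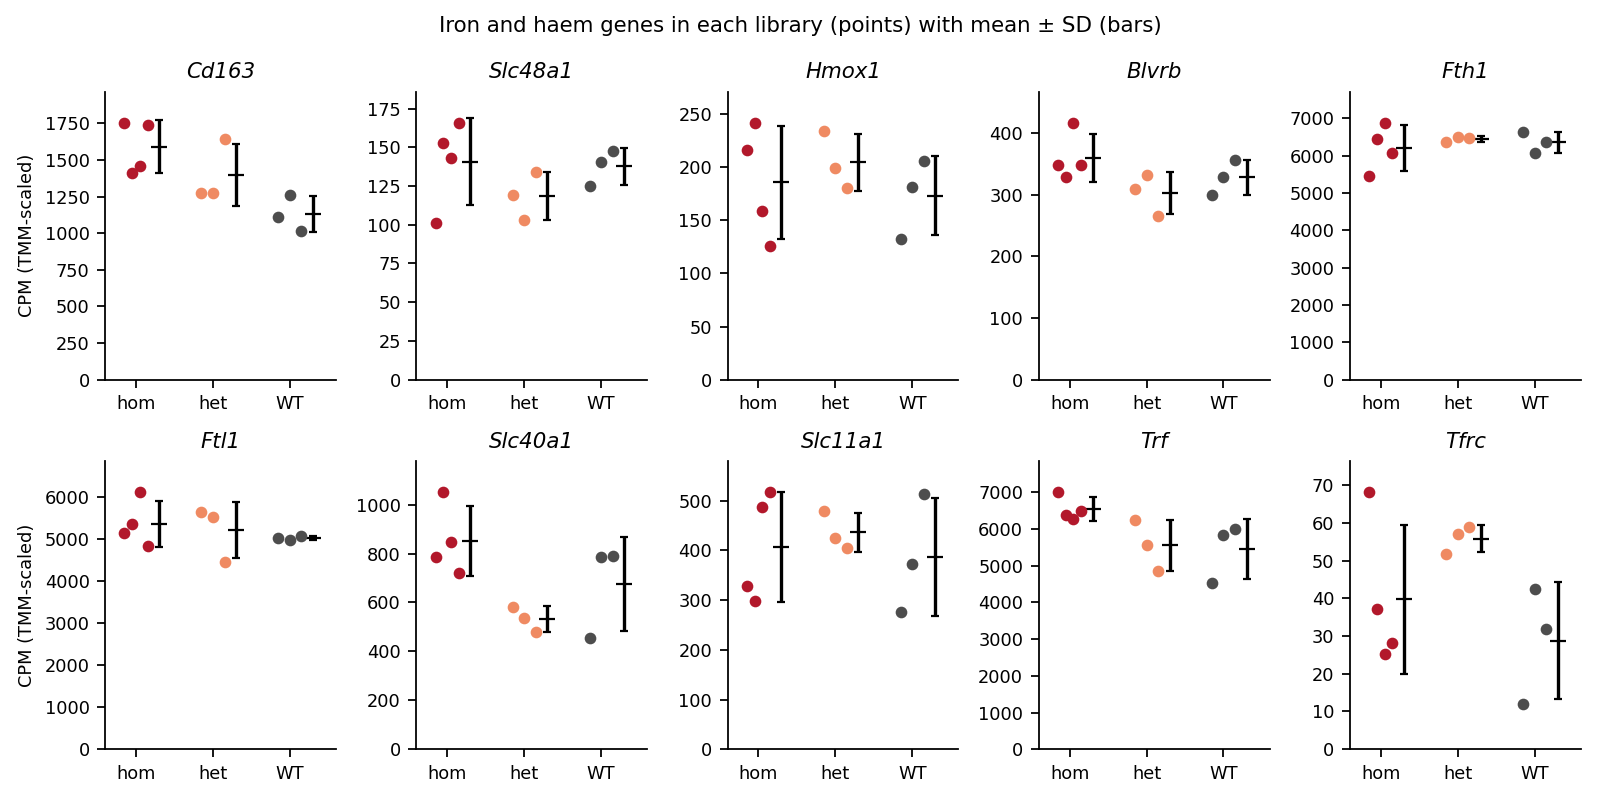
TMM-scaled CPM of the 10 genes in homozygous (hom, n = 4), heterozygous (het, n = 3) and wild-type (WT, n = 3) libraries, each axis starting at 0. Points are libraries and bars the mean ± SD. The homozygous and wild-type points are apart in Cd163 and Trf and overlap in the other 8 genes.

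Cd163, the haemoglobin-haptoglobin receptor, had the clearest genotype difference of the set. It read 1755, 1411, 1457 and 1741 CPM in homozygous, 1276, 1276 and 1640 CPM in heterozygous and 1110, 1263 and 1017 CPM in wild-type libraries. Every homozygous and every heterozygous library lay above every wild-type library, while homozygous and heterozygous libraries overlapped. The log2 fold change of homozygous over wild type was 0.49 (SE 0.13), a 1.41-fold level (edgeR quasi-likelihood adjusted p 0.380). DESeq2 gave 0.47 with an adjusted p of 0.0242, and over all alternatives the adjusted p ran from 0.0242 to 0.708. Heterozygous over wild type gave 0.31 (SE 0.14, edgeR adjusted p 0.791) and homozygous over heterozygous 0.19 (SE 0.13, edgeR adjusted p 1.0).

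Cd163 is itself a marker of CNS-associated macrophages, and the list of these markers is given beside it. The list includes Cd163 and also Mrc1, the gene under the allele. Of the 11 genes of that list, 10 had a log2 fold change above 0 in homozygous over wild type, with a median of 0.39, against 0.02 for all tested genes, and edgeR called 2 (Lyve1 higher, Mrc1 lower), beside 0.0642% of all genes. DESeq2 called 6 of the 11 (5 higher, Cd163 among them, and Mrc1 lower), beside 2.19%, and limma-voom 4 (3 higher and Mrc1 lower), beside 0.0713%. In the same comparison all 8 microglia markers had a log2 fold change below 0, with a median of -1.56. The edgeR test called 0 of these 8 (0.0642% of all genes), with 6 at an unadjusted p under 0.05 (7.52%). DESeq2 called 4 of them (2.19%) and limma-voom 0 (0.0713%). None of the 8 was at 0 in all libraries. The part that the mix of cells has in the Cd163 difference was not tested.

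For haem handling downstream of uptake no genotype difference larger than the spread was detected. Slc48a1, which moves haem out of the lysosome, read 101, 153, 143 and 166 CPM in homozygous, 119, 103 and 134 CPM in heterozygous and 125, 141 and 147 CPM in wild-type libraries. Hmox1, the inducible haem oxygenase, read 217, 242, 159 and 126 CPM in homozygous, 234, 200 and 181 CPM in heterozygous and 132, 181 and 206 CPM in wild-type libraries. Blvrb, which reduces biliverdin and flavins, read 348, 328, 417 and 347 CPM in homozygous, 309, 332 and 265 CPM in heterozygous and 300, 328 and 356 CPM in wild-type libraries. For each of these 3 genes the groups overlapped in every comparison. The log2 fold changes of homozygous over wild type were 0.03 (SE 0.18) for Slc48a1, 0.10 (SE 0.24) for Hmox1 and 0.14 (SE 0.12) for Blvrb, each with an edgeR adjusted p of 0.999.

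The ferritin chains varied least, and no genotype difference was detected in them. Fth1, the chain with ferroxidase activity, read 5451, 6450, 6889 and 6065 CPM in homozygous, 6373, 6514 and 6480 CPM in heterozygous and 6645, 6077 and 6373 CPM in wild-type libraries. Ftl1, the chain that seeds the iron core, read 5145, 5351, 6112 and 4827 CPM in homozygous, 5646, 5532 and 4451 CPM in heterozygous and 5013, 4977 and 5080 CPM in wild-type libraries. All groups overlapped, and the lowest and highest libraries of each chain were not of the wild type. The log2 fold change of homozygous over wild type was -0.03 (SE 0.08) for Fth1 and 0.09 (SE 0.10) for Ftl1, and that of heterozygous over wild type 0.02 (SE 0.08) and 0.05 (SE 0.11). These were the smallest SE of the set. The ratio of Fth1 to Ftl1 counts lay between 1.06 and 1.26 in homozygous libraries, between 1.13 and 1.46 in heterozygous libraries and between 1.22 and 1.33 in the wild type. Reads of near-identical Ftl1 copies can be assigned either way, and the annotated copies Ftl1-ps1 and Ftl1-ps2 held 0.858% of the Ftl1 counts.

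Slc40a1, the iron exporter, separated homozygous from heterozygous libraries. It read 787, 1051, 846 and 722 CPM in homozygous, 581, 538 and 479 CPM in heterozygous and 455, 785 and 790 CPM in wild-type libraries. Every homozygous library was above every heterozygous library, and the wild type spanned both, with replicate 1 below the heterozygous range and replicates 2 and 3 within the homozygous range. The log2 fold change of homozygous over heterozygous was 0.68 (SE 0.20), a 1.60-fold level. Its p was 0.00668 before and 0.985 after adjustment by edgeR's quasi-likelihood test, and over the alternatives the adjusted p ran from 0.0549 to 1.0. Homozygous over wild type gave 0.33 (SE 0.20) and heterozygous over wild type -0.35 (SE 0.21), with edgeR adjusted p of 0.814 and 0.872. Without wild-type replicate 1, homozygous over wild type gave 0.12 and heterozygous over wild type -0.57. Heterozygous over wild type gave -0.23 without wild-type replicate 2 and -0.22 without wild-type replicate 3.

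Slc11a1, which pumps iron and manganese out of phagosomes and of which C57BL/6 mice carry an inactive form, read 328, 298, 487 and 517 CPM in homozygous, 480, 425 and 405 CPM in heterozygous and 277, 373 and 513 CPM in wild-type libraries. The groups overlapped throughout, and its log2 fold change was 0.07 (SE 0.24) in homozygous over wild type, 0.17 (SE 0.26) in heterozygous over wild type and -0.10 (SE 0.24) in homozygous over heterozygous. None was called by edgeR.

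Trf, the carrier of iron in plasma and brain fluid, read 6997, 6378, 6267 and 6487 CPM in homozygous, 6231, 5563 and 4844 CPM in heterozygous and 4526, 5845 and 5999 CPM in wild-type libraries. Every homozygous library lay above all other libraries, by the narrow margin of 6267 against 6231 CPM at the closest. Its log2 fold change was 0.26 (SE 0.11, edgeR adjusted p 0.654) in homozygous over wild type, 0.24 (SE 0.11, edgeR adjusted p 1.0) in homozygous over heterozygous and 0.02 (SE 0.12) in heterozygous over wild type. In brain, oligodendrocytes and choroid plexus epithelium are known sources of Trf. Summed markers of oligodendrocytes, with 6 of 10 tested and Opalin at 0 in every library, were 141 to 278 CPM in homozygous, 194 to 252 CPM in heterozygous and 270 to 331 CPM in wild-type libraries. Summed choroid plexus markers, with 2 of 6 tested and Otx2 at 0, were 0 to 67.0 CPM in homozygous, 0.0942 to 111 CPM in heterozygous and 0 to 348 CPM in wild-type libraries. Few genes made up most of the larger sums. Over all libraries Cnp alone read 81.2 to 175 CPM and Mbp 10.7 to 164 CPM, and the choroid plexus marker Ttr 0 to 336 CPM. The part of oligodendrocytes and choroid plexus epithelium in the Trf levels was not tested.

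Tfrc, the receptor that takes in transferrin, was the least abundant and least steady gene of the set. It read 68.1, 37.2, 25.2 and 28.2 CPM in homozygous, 51.8, 56.9 and 58.8 CPM in heterozygous and 12.02, 42.4 and 31.8 CPM in wild-type libraries. All heterozygous libraries were above all wild-type libraries, and the homozygous libraries spanned both. The log2 fold change of heterozygous over wild type was 0.96 (SE 0.48), a 1.94-fold level (edgeR quasi-likelihood adjusted p 0.791). Without wild-type replicate 1 it was 0.58. Homozygous over wild type gave 0.46 (SE 0.45) and homozygous over heterozygous -0.49 (SE 0.44), neither called by edgeR. Without homozygous replicate 1, the highest library, homozygous over wild type gave 0.08.

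**Figure D3:**
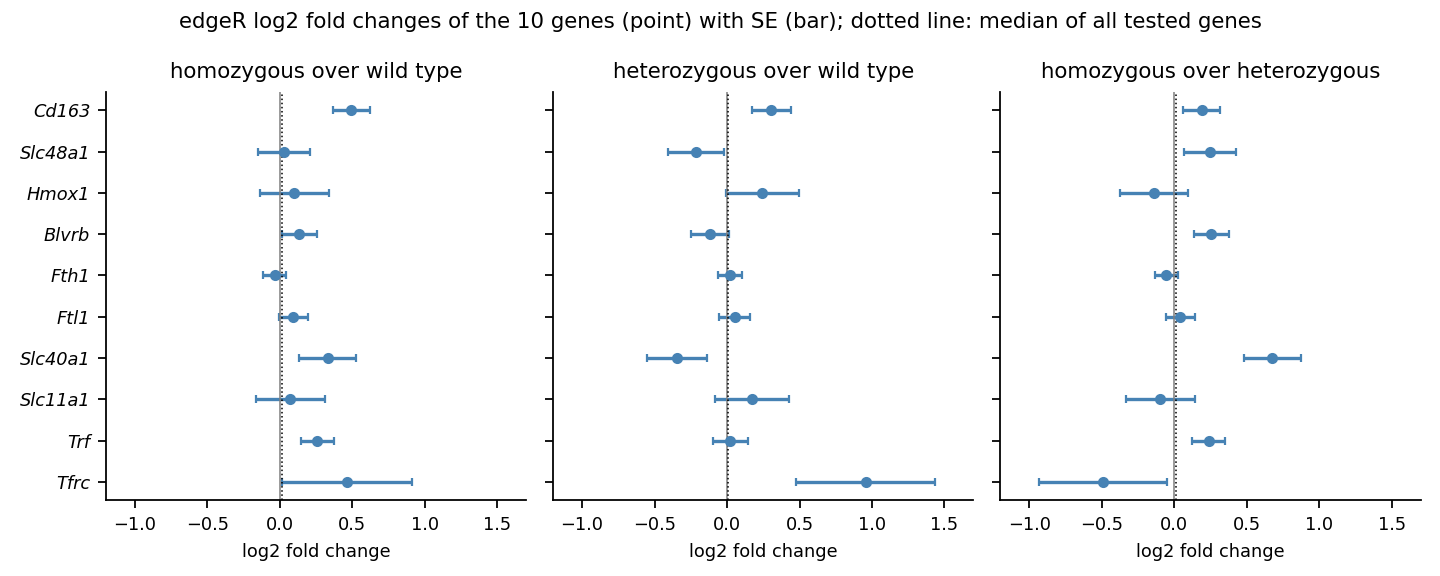
edgeR log2 fold changes of the 10 genes in the 3 genotype comparisons, points with bars of 1 SE, and a dotted line at the median of all tested genes. Cd163 lies at 0.49 in homozygous over wild type, Tfrc at 0.96 with the widest bar in heterozygous over wild type, and Slc40a1 at 0.68 in homozygous over heterozygous.

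Over the 10 genes, the median log2 fold change was 0.12 in homozygous over wild type, 0.04 in heterozygous over wild type and 0.11 in homozygous over heterozygous, against 0.02, 0.01 and 0.01 for all tested genes. A log2 fold change above 0 was found in 9 of 10 (51.1% of all genes), 7 of 10 (50.7%) and 6 of 10 (50.9%) in the same order of comparisons. Groups that did not overlap, with the first genotype higher, were found for Cd163 and Trf in homozygous over wild type (4.4% of all genes), for Cd163 and Tfrc in heterozygous over wild type (5.43%) and for Slc40a1 and Trf in homozygous over heterozygous (3.75%). No gene of the set was lower without overlap in any comparison, beside 3.57%, 4.16% and 3.72% of all genes. The 3 comparisons share libraries, so their values for a gene are not independent.

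Haemoglobin transcripts differed between libraries by far more than any gene of the set, and each genotype had a library with many and a library with few. Hbb-bs, the adult beta chain, read 0.617, 177, 385.3 and 1.75 CPM in homozygous, 2.29, 0 and 37.7 CPM in heterozygous and 2.48, 1.35 and 78.0 CPM in wild-type libraries. Hba-a1, an alpha chain, read 0.508, 86.9, 209 and 0.694 CPM in homozygous, 2.45, 0 and 42.6 CPM in heterozygous and 2.31, 0.765 and 54.8 CPM in wild-type libraries. The libraries fell into 4 with haemoglobin reads (homozygous 2 and 3, heterozygous 4 and wild type 3) and 6 with almost none, with no library between 2.48 and 37.7 CPM of Hbb-bs. Of these 4, all but homozygous 2 have the letter f in their sample title, and homozygous 4 is an f library with almost none. The log2 difference of f over m, with genotype in the model, was 3.671 for Hbb-bs and 3.695 for Hba-a1. Neither was called (SE 1.74 each, edgeR quasi-likelihood adjusted p 0.829 and 0.826), and this contrast was added after the data were seen. The 0 counts of Hbb-bs in heterozygous replicate 2 allow up to 0.0924 CPM, from 3 counts and for counting error only, so homozygous replicate 3 was at least 4170-fold higher.

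Alpha and beta chains were high in the same libraries. Summed over Hbb-bs, Hbb-bt, Hba-a1 and Hba-a2, which are near-identical in pairs so that reads can be split between copies, the 4 libraries held 384.8 and 860 CPM (homozygous 2 and 3), 120 CPM (heterozygous 4) and 191 CPM (wild type 3). The other 6 held at most 6.12 CPM. Alpha over beta counts were 0.657, 0.741, 0.781 and 0.893 in the same 4 libraries. Hbb-bs had a log2 fold change of 2.37 (SE 2.26) in homozygous over wild type and -1.04 (SE 2.26) in heterozygous over wild type, with edgeR adjusted p of 0.999 and 1.0.

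Other red-cell transcripts were sparse. Alas2, the erythroid enzyme that starts haem synthesis, read 40.4 CPM in homozygous replicate 3 and 3.92 CPM in homozygous replicate 2, and at most 0.0311 CPM elsewhere. The red-cell transcription factors Klf1 and Gata1 were at 0 in every library. Epor, the erythropoietin receptor, was read at 89.8 to 148 CPM in all libraries, with and without haemoglobin reads.

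**Figure D4:**
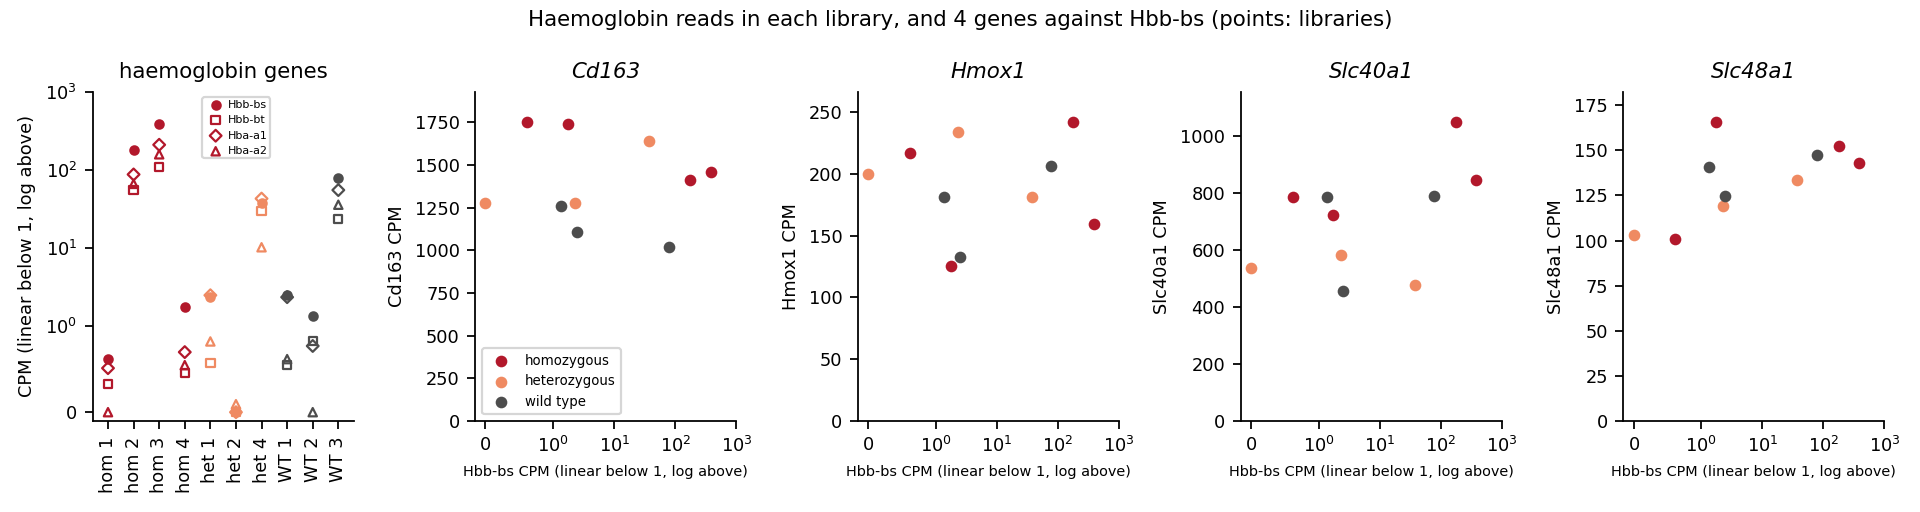
Left, the 4 haemoglobin genes in each library in TMM-scaled CPM (linear below 1, log above). Right, Cd163, Hmox1, Slc40a1 and Slc48a1 in CPM against Hbb-bs CPM, each point a library coloured by genotype. The libraries lie in 2 clusters along Hbb-bs, 6 at 2.48 CPM or less and 4 at 37.7 CPM or more, and the ranges of each gene in the clusters overlap.

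Whether the iron and haem genes follow the haemoglobin reads was tested for each gene against Hbb-bs and Hba-a1, 20 relations in all. Over the 10 libraries 0 of 20 passed a Benjamini-Hochberg adjusted permutation p of 0.05, by Pearson's r or by Spearman's rho, with a smallest adjusted p of 0.753 for r. That smallest value moved with single libraries, from 0.0835 without homozygous replicate 4 to 0.966 without wild-type replicate 3. It was 0.444 with genotype means removed, and 0 of 20 passed in each of these settings. No pooled r is given, because the libraries lie in separate clusters. Within the 6 libraries with little haemoglobin 0 of 20 passed in an exact permutation test over 720 pairings (adjusted p 0.958 for every r). These 6 were picked by their Hbb-bs level and span only 0 to 2.48 CPM of it. With 720 pairings and 20 relations few outcomes could have passed, so this count of 0 says little. The 4 libraries with haemoglobin reads are too few for a correlation.

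The library with most haemoglobin, homozygous replicate 3, had the highest Fth1, Ftl1 and Blvrb, and homozygous replicate 2, the next, had the highest Hmox1 and Slc40a1. So 5 of the 10 genes peaked in a library with haemoglobin reads, and 3 (Cd163, Ftl1 and Blvrb) were lowest in one. Libraries with haemoglobin reads are 4 of the 10, and the shares over all tested genes were not computed. Neither count is therefore read as a result about the set. Within a genotype the order was mixed. Cd163 was lower in both homozygous libraries with haemoglobin (1411 and 1457 CPM) than in both without (1755 and 1741 CPM), while heterozygous replicate 4 had the highest heterozygous Cd163 (1640 CPM) and wild-type replicate 3 the lowest wild-type Cd163 (1017 CPM). Trf too was lower in both homozygous libraries with haemoglobin than in both without. Fth1, Ftl1 and Slc40a1 were higher in both. In heterozygous libraries, though, Ftl1 and Slc40a1 were lowest in replicate 4 (4451 and 479 CPM). Between 2 and 2 libraries such separation arises easily, and its share over all tested genes was not computed. These orders are therefore not read as a result about the set either. With the 4 libraries left out, which leaves 2 libraries per genotype, the log2 fold change of Cd163 in homozygous over wild type was 0.56 and that of Slc40a1 in homozygous over heterozygous 0.44. The libraries left have the title letter m in heterozygous and wild type but both m and f in homozygous. The letter is thus not balanced over genotypes there.

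Of 30 other iron-handling genes 16 were tested. edgeR called 0 in homozygous over wild type, heterozygous over wild type and homozygous over heterozygous, beside 0.0642%, 0.0% and 0.0214% of all genes, so that a count of 0 says little about the list. At an unadjusted p under 0.05 it had 0, 1 and 3 in those comparisons, beside 7.52%, 5.82% and 4.86% of all genes. DESeq2 and limma-voom called 0. The median log2 fold change was 0.22, 0.06 and 0.24 in those comparisons, above the 0.02, 0.01 and 0.01 of all tested genes. Hfe, the haemochromatosis protein that binds the transferrin receptor, averaged 633 ± 23.4 CPM in homozygous, 549 ± 21.4 CPM in heterozygous and 579 ± 59.9 CPM in wild-type libraries (SD, n = 4, 3 and 3). Cp, the ferroxidase that works with ferroportin, averaged 577 ± 73.1, 411 ± 94.6 and 472 ± 64.2 CPM in homozygous, heterozygous and wild-type libraries. For Cp the log2 fold change of homozygous over heterozygous was 0.49 (SE 0.17), with an unadjusted p of 0.0174 and an edgeR adjusted p of 1.0. In homozygous over heterozygous the groups of 3 of the 16 genes did not overlap with homozygous higher (Hfe, Cp and Fbxl5, beside 3.75% of all genes), and those of 1 with homozygous lower (Slc39a14, beside 3.72%). Slc39a14, a metal importer singled out after its values were seen, had a log2 fold change of -1.44 (SE 0.62, unadjusted p 0.0415, edgeR adjusted p 1.0), and Fbxl5, which targets an iron regulatory protein for breakdown, one of 0.36 (SE 0.16, edgeR adjusted p 1.0).

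Of the same list, Pcbp1, an iron chaperone, averaged 234 ± 28.3 CPM in homozygous, 206 ± 37.8 CPM in heterozygous and 224 ± 74.2 CPM in wild-type libraries. Ncoa4, the receptor that sends ferritin to the lysosome, averaged 231 ± 25.6 CPM in homozygous, 206 ± 46.1 CPM in heterozygous and 192 ± 16.2 CPM in wild-type libraries. Neither was called in homozygous over wild type, where their groups overlapped. Hamp2, Hjv, Tfr2, Steap1, Steap4, Cybrd1, Hephl1, Ftmt, Lcn2 and Ltf had 0 counts in all 10 libraries.

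Of 21 genes of haem handling and synthesis, 17 were tested and edgeR, DESeq2 and limma-voom called 0 in every comparison, beside the same low shares of all genes (0.0642%, 2.19% and 0.0713% by these tools in homozygous over wild type). At an unadjusted p under 0.05 edgeR had 2 (Pgrmc1 and Bach1, both higher) in homozygous over wild type, beside 7.52% of all genes. It had 1 in heterozygous over wild type (Spic, lower, beside 5.82%) and 1 in homozygous over heterozygous (Spic, higher, beside 4.86%). The list median was 0.23, 0.11 and -0.04 in these comparisons. Spic, the transcription factor of red-pulp macrophages that recycle iron, singled out after its values were seen, read 46.3, 42.5, 31.7 and 25.7 CPM in homozygous, 11.8, 16.3 and 20.6 CPM in heterozygous and 24.1, 29.8 and 39.6 CPM in wild-type libraries. Every heterozygous library lay below all others, with a log2 fold change of 1.17 (SE 0.33, edgeR adjusted p 0.985) in homozygous over heterozygous and -0.94 (SE 0.34, edgeR adjusted p 0.791) in heterozygous over wild type.

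Among the most abundant genes of the haem list, Hmox2, the constitutive haem oxygenase, averaged 182 ± 14.8 CPM in homozygous, 190 ± 33.2 CPM in heterozygous and 186 ± 16.6 CPM in wild-type libraries. Alas1, the housekeeping enzyme that starts haem synthesis, averaged 184 ± 43.0 CPM in homozygous, 149 ± 33.7 CPM in heterozygous and 147 ± 25.8 CPM in wild-type libraries. Blvra, the main biliverdin reductase, averaged 154 ± 25.7 CPM in homozygous, 137 ± 31.8 CPM in heterozygous and 125 ± 31.0 CPM in wild-type libraries. Pgrmc1, a haem-binding membrane protein, averaged 193 ± 54.4 CPM in homozygous, 173 ± 43.0 CPM in heterozygous and 121 ± 43.4 CPM in wild-type libraries, with a log2 fold change of 0.67 (SE 0.30, edgeR adjusted p 0.654) in homozygous over wild type.

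NRF2 is the oxidant sensor that also induces Hmox1 and the ferritin genes. Of the 15 genes of a list that holds NRF2, its inhibitor Keap1 and targets, 13 were tested. edgeR called 0 in homozygous over wild type, heterozygous over wild type and homozygous over heterozygous, beside 0.0642%, 0.0% and 0.0214% of all genes. At an unadjusted p under 0.05 it had 0, beside 7.52%, 5.82% and 4.86%, and DESeq2 and limma-voom called 0. The median log2 fold change was 0.01 in homozygous over wild type, 0.10 in heterozygous over wild type and -0.01 in homozygous over heterozygous. Prdx1, a peroxidase, averaged 813 ± 125 CPM in homozygous, 782 ± 30.2 CPM in heterozygous and 856 ± 80.2 CPM in wild-type libraries. Nfe2l2, which encodes NRF2, averaged 296 ± 62.8 CPM in homozygous, 328 ± 34.8 CPM in heterozygous and 294 ± 31.9 CPM in wild-type libraries. Sqstm1, an autophagy receptor, averaged 326 ± 41.2, 340 ± 49.3 and 385.4 ± 58.5 CPM, and G6pdx, which supplies NADPH, 137 ± 26.8, 118 ± 27.7 and 172 ± 58.1 CPM, in homozygous, heterozygous and wild-type libraries.

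**Figure D5:**
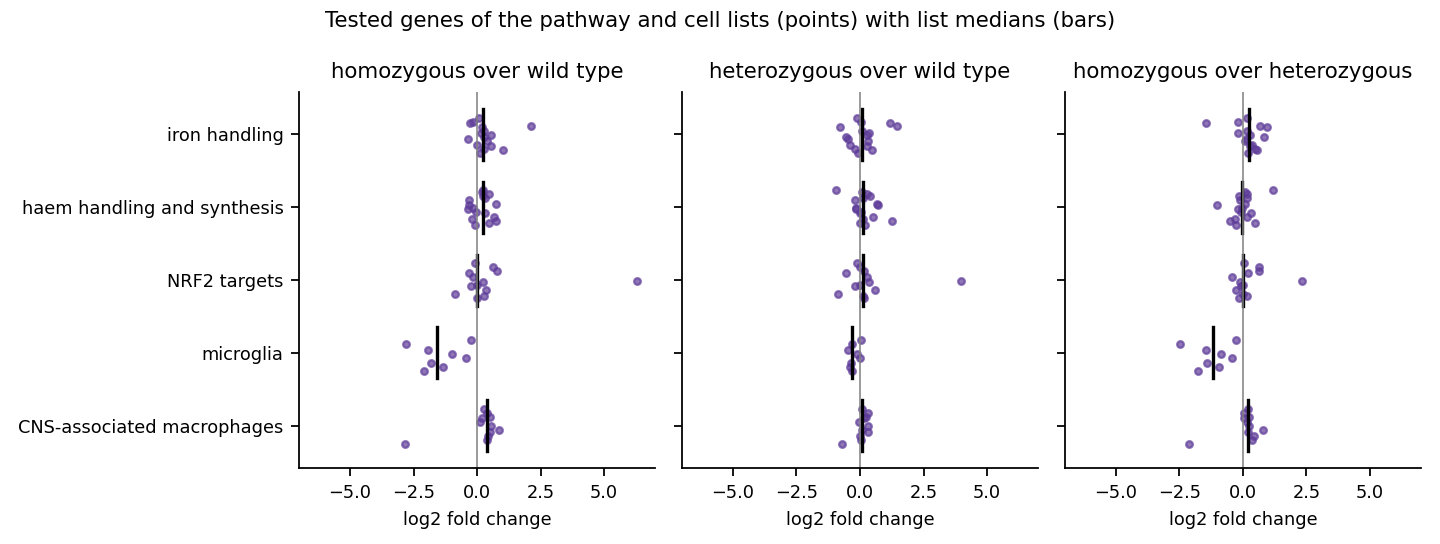
edgeR log2 fold changes of the tested genes of 3 pathway lists and 2 cell lists in the 3 genotype comparisons, each point a gene and each bar the list median. The iron, haem and NRF2 medians lie between -0.04 and 0.24, against -1.56 for microglia markers in homozygous over wild type.

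Genes whose levels ran most like a member over the 10 libraries were found by Pearson's r of log2 CPM among 6443 tested genes of at least 20 CPM, as a description of libraries that share depth and cell mix. The highest of so many values of r over 10 libraries can be large without any relation, and that level was not computed. The closest to Slc40a1 were Tmem106c (r = 0.933), Cd4 (0.932) and Cyb5a (0.920), and the closest to Cd163 were Vgll4 (0.915), Fnip1 (0.907) and Ttyh3 (0.894). The closest gene was Triap1 for Hmox1 (0.935), Sgms1 for Slc11a1 (0.934), Poglut3 for Trf (0.967), Ecd for Tfrc (0.968), Avl9 for Blvrb (0.938) and Itch for Slc48a1 (0.953). For the 2 ferritin chains it was Eif2s2 (Fth1, 0.871) and Ndufab1 (Ftl1, 0.900). No member was among the 3 closest genes of another member, which says little with so many genes compared. Between members r ran from -0.531 (Fth1 and Trf) to 0.786 (Slc40a1 and Trf).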

How the data were processed

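Bulk RNA of sorted macrophages from 10 mouse brains was sequenced, with cDNA made by a SMARTer kit that does not mark strand and Nextera XT libraries, per the labels' protocols. The authors deposited raw read counts by gene symbol, all whole numbers. Per the submitters' processing notes, bcl2fastq 2.20, STAR 2.7.8a and featureCounts 2.0.2 were used. Not given in the sources used here were the genome build, the annotation and the strand setting. Reads of near-identical or overlapping genes could therefore not be separated. Slc48a1 overlaps Hdac7 on the opposite strand, which held 368 counts over all libraries.

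edgeR's filterByExpr, grouped by genotype, kept 14023 genes with 99.9% of the counts (minimum count 10 and minimum total 15). Libraries, of 22986972 to 36575446 counts, were scaled by TMM factors. CPM, counts per 1000000, were computed from the deposited counts with these factors. The test was edgeR's quasi-likelihood test with robust dispersion (edgeR 4.0.16, R 4.3.3) on all 10 libraries with genotype as the only term, Benjamini-Hochberg adjustment over all genes and a threshold of 0.05. SE is the fold change divided by the root of the F value. The tests were tried on simulated counts. Reads copied by PCR are not independent molecules, so limits from 3 counts cover counting error only. Each library is a separate mouse, and no pair agreed within sampling noise.

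Alternatives were DESeq2 1.42.0 and its size factors in edgeR, limma-voom (limma 3.58.1), no or a stricter count filter (at least 1 CPM in 3 libraries), no robust estimation, the title letter (m or f) as covariate, a block for the replicate number, fits with just the 2 genotypes of a comparison, and omission of each library in turn. Leaving out the 4 libraries with haemoglobin reads, relations within the other 6 and the contrast of title letters were added after seeing the data. Relations to haemoglobin used log2 CPM (prior count 2) and 100000 permutations.

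Transcripts, lengths and coordinates come from GENCODE vM21 on GRCm38, which names 93.5% of the symbols. A single transcript per gene was used, the longest of the best APPRIS rank. The 10 genes and the lists were chosen with earlier results of these data known. The genes named are the 10, 4 haemoglobin genes, Mrc1, the 4 most abundant and any called genes of the iron, haem and NRF2 lists, and the 3 genes most like each member. Any other gene was named after its values were seen.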

Additional observations from a re-analysis of the deposited data

How the results depend on the processing

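Of 600 log2 fold changes of the 10 genes under 10 alternative settings and with each of the 10 libraries left out, 572 kept their direction and their side of the threshold. There were 27 that changed sign, 20 of them with a library left out, and 1 (Cd163 in homozygous over wild type) passed under DESeq2, which made 1 the count of called iron and haem genes there. No other alternative called any of the 10.

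Without the 4 libraries with haemoglobin reads, homozygous over wild type turned to -0.001 for Ftl1, -0.69 for Hbb-bs and -1.35 for Hba-a1, heterozygous over wild type to 0.024 for Blvrb, and homozygous over heterozygous to -0.16 for Ftl1 and -1.01 for Hba-a1. The 4 were picked by their Hbb-bs level, so the values of Hbb-bs and Hba-a1 without them are no test of those genes. With the title letter as covariate, homozygous over wild type turned to -0.005 for Slc11a1 and -0.015 for Slc48a1. With a replicate block it turned to -0.051 for Slc48a1, heterozygous over wild type to 0.89 for Hbb-bs and 1.06 for Hba-a1, and homozygous over heterozygous to -0.003 for Ftl1. Same-numbered libraries are not stated to be litter mates. Their deviations from the genotype means correlated at -0.0118 to 0.0347, which cannot show whether the numbers stand for anything shared.

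With a library left out, homozygous over wild type ran from -0.083 to 0.032 for Fth1, -0.053 to 0.249 for Hmox1, -0.059 to 0.169 for Slc48a1 and -0.113 to 0.33 for Slc11a1. Heterozygous over wild type ran from -0.017 to 0.145 for Ftl1, -0.099 to 0.103 for Trf, -0.024 to 0.428 for Slc11a1, -0.019 to 0.048 for Fth1, -4.57 to 2.79 for Hbb-bs and -3.973 to 3.281 for Hba-a1. Homozygous over heterozygous ran from -0.095 to 0.009 for Fth1, -0.235 to 0.025 for Slc11a1, -0.052 to 0.11 for Ftl1 and -0.293 to 0.008 for Hmox1. The cause was not tested.

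The number of genes called among all tested was 9 in homozygous over wild type, 294 with DESeq2, 17 with the title letter, 1 with the replicate block, 2 with only the 2 genotypes, 1 without the 4 haemoglobin libraries and 2 to 12 with a library left out. In heterozygous over wild type it was 0, and 236 with DESeq2. In homozygous over heterozygous it was 3, 123 with DESeq2, 1 without robust estimation, with the title letter, with the replicate block or with only the 2 genotypes, 0 without the 4 haemoglobin libraries and 1 to 2 with a library left out. With 3 or 4 mice a genotype, the SE of 0.08 to 0.45 of the 10 genes in homozygous over wild type sets what could be seen, and Tfrc, with 12.02 to 68.1 CPM, is the least certain.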

Other observations

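The title letter by genotype interaction of Hmox1 had the lowest p of the 10 genes, and it was not called. Among libraries with the letter m Hmox1 read 217 and 242 CPM in homozygous, 234 and 200 CPM in heterozygous and 132 and 181 CPM in wild-type mice. Among libraries with the letter f it read 159 and 126 CPM in homozygous mice, 181 CPM in the single heterozygous mouse and 206 CPM in the single wild-type mouse. The interaction, in homozygous over wild type, was 1.08 on the log2 scale (unadjusted p 0.0137, edgeR quasi-likelihood adjusted p 0.739, limma-voom adjusted p 0.643) and rests on 1 wild-type library with the letter f. No other member had an unadjusted interaction p under 0.05, and 0 of 10 were called by edgeR or limma-voom.

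For Slc11a1 the log2 difference of the letter f over m, with genotype in the same model, was 0.45 (SE 0.16) and was not called (edgeR quasi-likelihood adjusted p 0.756). The letter f libraries lay above both letter m libraries in homozygous (487 and 517 against 328 and 298 CPM) and wild-type mice (513 against 277 and 373 CPM), and below them in heterozygous mice (405 against 480 and 425 CPM). This contrast was added after the data had been seen.

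Wild-type replicate 1 had the lowest value of 4 of the 10 genes (Slc40a1, Slc11a1, Trf and Tfrc). It also had 2166 tested genes at 0 counts. The share of all tested genes that were lowest in this library was not computed, so the count says little about the set.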
